A study of Mus musculus with 52 samples.

Results

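Immortalised MEFs (mouse embryonic fibroblasts) in which both Mll2 alleles carry loxP sites were profiled by ChIP-seq for mono-, di- and trimethylation of histone H3 lysine 4 (H3K4me1, H3K4me2 and H3K4me3). Described here are the distal H3K4me2 regions that had a peak in F/F cells and none in FC/FC cells, called lost regions. They were chosen by the H3K4me2 peak calls themselves: the peaks of the 6 H3K4me2 libraries were merged, regions more than 5 kb from every annotated transcription start site (TSS) were kept, and a lost region had to overlap a peak in all 3 F/F libraries while overlapping no peak of the 3 FC/FC libraries. Of 74131 merged regions 54058 were distal, and 1362 of these (2.52%) were lost. They made up 3.75% of the 36312 distal regions called in all 3 F/F libraries, of which 29273 were also called in all 3 FC/FC libraries (constant regions). The opposite pattern, a peak in all 3 FC/FC and in no F/F library, was met at 54 distal regions (gained regions). The word lost refers to the peak call only: a region without a called peak may still carry the mark.

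F/F cells were untreated. FC/FC cells were the same cells after 24 h of tamoxifen, which excises exons 3 to 5 of Mll2, so excision and exposure to the drug cannot be told apart in these libraries. Per the study's methods the drug was then washed out, and unless stated otherwise the cells grew for several more days until harvest. Each mark had 3 libraries per genotype, named here by their library numbers. The study's methods call the ChIP-seq experiments of a genotype independent, but the labels do not say whether the libraries came from separate cultures, so the p-values measure the spread between libraries only.

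Mll2 (Kmt2d) encodes a methyltransferase of H3K4 that has been linked to enhancers. H3K4me1 and H3K4me2 mark enhancers and the flanks of promoters, whereas H3K4me3 marks the promoters of active genes. A distal region with H3K4me1 and H3K4me2 but without H3K4me3 therefore has the marks commonly found at enhancers.

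The sequence of some lost regions is shown first, from the GRCm38 assembly (mm10, the build of the deposited peaks) as distributed by RefSeq, plus strand. Each is the central 300 bases of a region. The first 4 were picked, after their sequences had been seen, because they hold letters of the AP-1 motif, TGANTCA, or the TEAD motif, ACATTCC, on either strand, and these are in capitals. They lie upstream of the keratin gene Krt19 (chr11:100155693-100155992), in the gene Fam120a (chr13:48921991-48922290), upstream of Mdm2 (chr10:117721521-117721820) and upstream of Ly6f (chr15:75192954-75193253).
Krt19: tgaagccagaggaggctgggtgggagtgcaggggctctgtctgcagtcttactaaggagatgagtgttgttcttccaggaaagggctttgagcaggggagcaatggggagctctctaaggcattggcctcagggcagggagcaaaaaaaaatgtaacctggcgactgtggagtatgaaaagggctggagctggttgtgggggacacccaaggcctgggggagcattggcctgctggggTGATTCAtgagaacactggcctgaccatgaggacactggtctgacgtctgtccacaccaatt
Fam120a: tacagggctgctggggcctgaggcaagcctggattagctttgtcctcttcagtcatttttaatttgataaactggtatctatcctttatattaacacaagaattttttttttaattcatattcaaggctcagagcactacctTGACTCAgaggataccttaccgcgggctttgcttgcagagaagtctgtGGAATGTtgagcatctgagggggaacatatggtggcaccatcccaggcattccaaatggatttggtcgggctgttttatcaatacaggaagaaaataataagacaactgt
Mdm2: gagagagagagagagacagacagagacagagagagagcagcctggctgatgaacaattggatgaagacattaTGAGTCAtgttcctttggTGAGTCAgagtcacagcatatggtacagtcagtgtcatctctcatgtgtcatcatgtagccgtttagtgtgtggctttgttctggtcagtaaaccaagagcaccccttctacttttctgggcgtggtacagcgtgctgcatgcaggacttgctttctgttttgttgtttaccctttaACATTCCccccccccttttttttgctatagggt
Ly6f: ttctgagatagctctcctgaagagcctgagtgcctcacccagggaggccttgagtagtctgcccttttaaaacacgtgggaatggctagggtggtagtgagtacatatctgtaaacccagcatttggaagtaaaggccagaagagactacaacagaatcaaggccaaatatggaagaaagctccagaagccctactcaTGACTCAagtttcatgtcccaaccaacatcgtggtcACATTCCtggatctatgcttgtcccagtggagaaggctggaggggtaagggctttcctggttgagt

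The AP-1 letters were present in the central 300 bases of 26.4% of the lost regions, compared with 22.7% of the constant and 23.1% of all distal regions. The TEAD letters were present in 15.1% of the lost regions, compared with 9.53% of the constant, 9.92% of all distal and 3.70% of the gained regions. Constant regions whose H3K4me2 score in F/F cells was like that of the lost regions (between the 5th and the 95th percentile of the lost regions' mean F/F scores, 3614 regions) held the TEAD letters in 8.09%. Of the 10 lost regions with the highest mean F/F score, only Krt19, Fam120a and Prss23 held either motif in these bases. The letters CAGCTG of an E-box were present in 21.3% of the lost and 17.9% of the constant regions. The remaining 7 motifs were also searched on both strands. The RUNX letters TGTGGTT were found in 10.1% of lost and 9.42% of constant regions. The GATA letters AGATAA were found in 12.9% and 13.8%, and in 15.5% of the constant regions of like score. The NFI letters TTGGCA were found in 20.4% and 20.8%. Another E-box, CACGTG, was found in 4.92% and 3.97%. Sp1 letters, GGGCGG, were present in 6.31% of lost and 7.54% of constant regions. ETS letters, CGGAAGT, were rarer, with 0.661% and 1.03%. The C/EBP letters TTGCGCAA were in 0% and 0.0683%. These are descriptions without a test, and a match of letters is not a bound site. Constant regions were longer, so that their central 300 bases were a smaller part of the region.

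Lost regions held few CpG dinucleotides. Their central 300 bases had a median of 3 CpGs and a median GC content of 46.7%, compared with 3 CpGs and 45.3% in the constant regions. At least 10 CpGs were present in 16 of the 1362 lost regions (1.17%) and in 8.56% of the constant regions. Bases soft-masked as repeats took 13.6% of the lost and 14.6% of the constant windows on average.

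Lost regions were shorter and more weakly enriched in F/F cells than constant regions. Their median length was 1078 bp, compared with 1808 bp for constant, 1368 bp for all distal and 1012.5 bp for gained regions. Sets of nearer score were almost as short. The median was 1218.5 bp for constant regions of like score and 1167.5 bp for regions called in 3 F/F and 1 FC/FC libraries. The peak score is -10 log10 of the P-value of MACS against an H3 library, and no deposited peak scored under 50. The median score of the lost regions was 89.4 in NGS-6278, 82.0 in NGS-6286 and 123 in NGS-6294, and the median of the mean over the 3 F/F libraries was 103 compared with 566 for the constant regions. NGS-6294 gave the highest score of the 3 libraries at 59.3% of the lost regions, NGS-6278 at 23.9% and NGS-6286 at 16.8%. A score of at least 100 in every F/F library was reached by 175 lost regions (12.8%). These values chose the members and are given as a description.

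**Figure D1:**
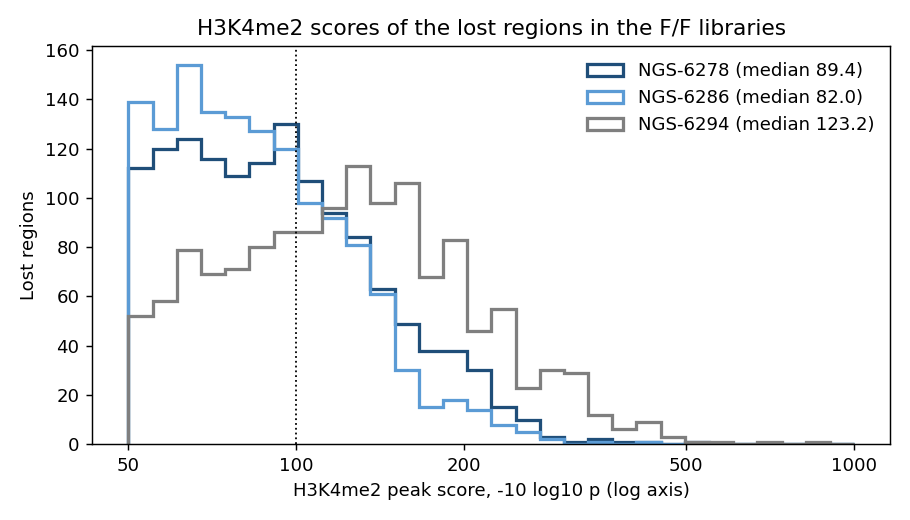
H3K4me2 peak score (x axis, -10 log10 P, log axis) of the 1362 lost regions in each of the 3 F/F libraries (lines), with the number of regions per bin on the y axis. Most regions in NGS-6278 and NGS-6286 lie below the dotted line at 100, whereas NGS-6294 has a median of 123.

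Members lay close to both limits of the rule. The lost region nearest to a TSS was 5032 bp from that of Padi6 (chr4:140747675-140748712), with scores of 153, 119 and 178 in the F/F libraries. A region with the same pattern of calls near Map3k3 (chr11:106089892-106090999) was 4990 bp away and was not a member. The lost region with the lowest F/F score, near Spink13, scored 92.85, 50.01 and 90.2, and a region near Cpa6 that scored 187, 105 and 100.1 in F/F cells was left out for a single FC/FC peak of 50.04. Beside the lost regions, 1950 distal regions were called in all 3 F/F and 1 FC/FC library and 3727 in all 3 F/F and 2 FC/FC libraries, with median mean F/F scores of 120.03 and 152.

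The number of lost regions followed the peak calls. F/F libraries had 62100 to 70437 H3K4me2 peaks and FC/FC libraries 56112 to 58585, with no overlap, although the reads within transcripts overlapped (36376215 to 48504887 and 31514831 to 49990775). When the same number of top-scoring peaks was taken from each library, 382 regions were lost and 367 were gained, and 297 of the 1362 lost regions (21.8%) were still lost. With a minimum score of 100 there were 1206 lost and 31 gained regions, of which 175 of the 1362 were still lost. Leaving out an H3K4me2 library gave 1694 to 3169 lost and 91 to 226 gained regions. The excess of lost over gained regions was thus not seen with equal peak numbers, and what made the numbers unequal was not tested.

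**Figure D2:**
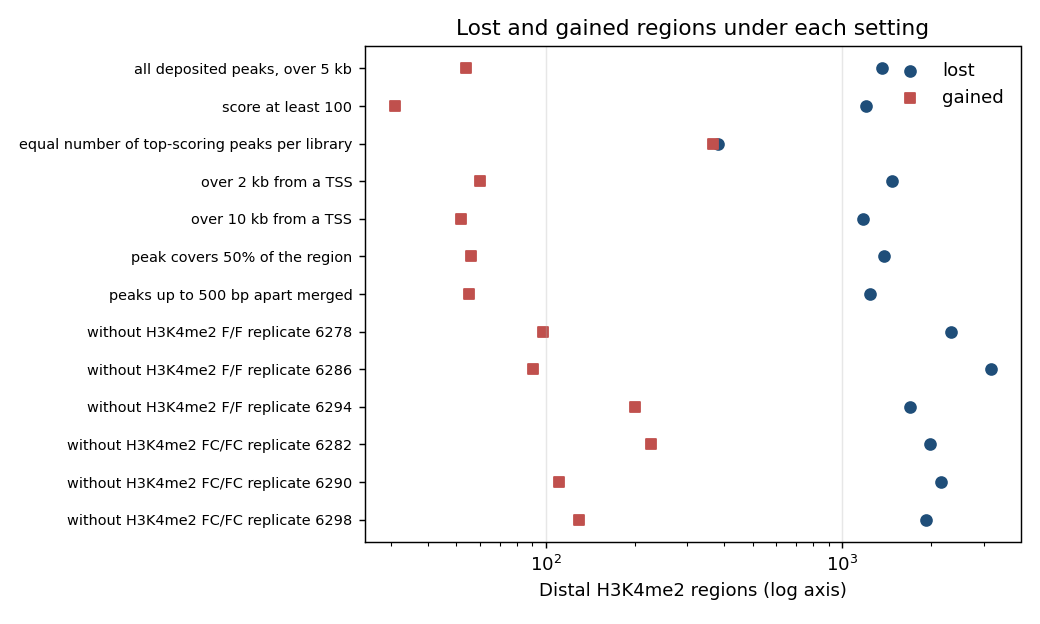
Number of lost (circles) and gained (squares) distal H3K4me2 regions (x axis, log axis) under each setting (y axis). The counts differ widely under all settings but that with equal peak numbers, where 382 lost and 367 gained regions almost coincide.

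To see how well the pattern held in libraries that took no part in choosing regions, lost regions were chosen again on 2 F/F and 2 FC/FC libraries and counted in the remaining F/F and FC/FC library, in all 9 ways. The regions so chosen numbered 2313 to 4344. A peak was present in the remaining F/F library at 46.2% to 85.3% of them (median 62.6%) and in the remaining FC/FC library at 20.2% to 34.5% (median 26.8%). The F/F share was higher in 9 of 9 ways, by 19.2 to 57.4 percentage points. Over all distal regions of these runs the shares were 76.2% to 88.7% and 66.9% to 74.7%. With equal peak numbers the F/F share was again higher in 9 of 9 ways, by 13.2 to 38.5 points, with medians of 57.4% and 36.4%, and the shares over all distal regions were then 76.8% to 80.1% (F/F) and 74.2% to 81.4% (FC/FC). Gained regions chosen in the same manner had a peak in the remaining FC/FC library at a median of 49.2% and in the remaining F/F library at 43.1%, and here the F/F share was higher in 4 of 9 ways. With equal peak numbers these medians were 62.9% (FC/FC) and 32.7% (F/F), and the FC/FC share was higher in 8 of 9 ways. The 9 ways share libraries and are no replicates, so no test was made.

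For NGS-6282, an H3K4me2 library of FC/FC cells, the label names the antibody that the H3K4me1 libraries have. Without it 1979 regions were lost and 226 gained. As the deposited lists are named, each H3 library served as the control for 1 library of each of the 3 marks, so that the marks are not fully independent of each other at a region. The identity of the cells as fibroblasts was checked on H3K4me3: 9 of 10 fibroblast markers (Thy1 being the exception) had a peak at the TSS in all 6 libraries, compared with 2 of 6 epithelial (Epcam and Cdh1), 2 of 5 neural (Sox2 and Tubb3), 1 of 4 endothelial (Kdr) and 0 of 5 haematopoietic markers. Summed H3K4me3 over the fibroblast markers was 91.3 to 95.9 RPKM (reads per kilobase and sequencing depth in transcripts) in the 6 libraries, and over the epithelial markers 1.35 to 1.69 RPKM. Over the neural markers it was 12.6 to 14.6 RPKM, over the endothelial 1.29 to 1.42 RPKM and over the haematopoietic 1.44 to 1.74 RPKM. Reads over the whole of Kmt2d (H3K4me2, 2.46 to 2.55 RPKM in F/F and 2.69 to 2.89 RPKM in FC/FC cells) do not test the excision, since only a few exons are removed.

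Lost regions were mostly intergenic or intronic. In the RefSeq annotation of GRCm38, 656 of them (48.2%) were intergenic, 599 (44.0%) lay within introns, 82 (6.02%) overlapped a coding exon and 25 (1.84%) another exon. For the constant regions these shares were 47.9%, 39.7%, 9.19% and 3.18%. The median distance to the nearest TSS was 32636 bp, compared with 36606 bp for constant regions, and 188 lost regions (13.8%) were within 10 kb. Of the lost regions 40.2% were upstream of the nearest TSS, compared with 41.6% of the constant regions. The distances use the transcripts of the deposited tables, and 181 lost regions (13.3%) were within 5 kb of a TSS in the fuller GENCODE M21 basic set.

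They were spread over the genome. Lost regions were found on all chromosomes but Y, from 2.93% of the distal regions called in 3 F/F libraries on chromosome 3 to 4.69% on chromosome 11. Another lost region lay within 50 kb of 218 of them (16.0%). The nearest constant region was a median of 8540.5 bp away, and 732 lost regions (53.7%) had a constant region within 10 kb. How often other distal regions lay so near to a lost or a constant region was not counted, so these shares are a description only.

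Nearly all lost regions carried H3K4me1 in both genotypes. In F/F cells, 94.0%, 93.6% and 96.0% of the lost regions had an H3K4me1 peak (NGS-6277, NGS-6285 and NGS-6293), and in FC/FC cells 93.3%, 91.8% and 93.5% (NGS-6281, NGS-6289 and NGS-6297). The FC/FC values were all below the F/F values, with means of 92.9% ± 0.960 and 94.5% ± 1.31 (SD, n = 3; exact two-sided permutation test over libraries, p = 0.1, the smallest value possible with 3 against 3). Constant regions had means of 89.2% ± 1.77 (F/F) and 90.4% ± 0.654 (FC/FC), each over 3 libraries with its SD, and there the genotypes overlapped. The separation at lost regions ended under 4 of 6 other settings (exact permutation p of 0.2 to 0.7, with equal peak numbers 0.4) and with each of the 6 H3K4me2 libraries left out (0.2 to 0.5). The share at lost minus that at constant regions was 4.44 to 6.32 points in F/F and 2.10 to 2.98 points in FC/FC libraries (exact permutation p = 0.1), and this difference stayed apart in all of those settings. In every setting the H3K4me1 and H3K4me2 peaks were called against the same H3 libraries. What part these H3 libraries had in the difference was not tested.

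H3K4me1 was more frequent at lost regions than at constant regions of like H3K4me2 score. Among the constant regions of like F/F score, 65.2% to 72.1% had an H3K4me1 peak in F/F and 68.4% to 71.8% in FC/FC libraries, which is below the lowest share at lost regions in every library. The median mean F/F score of these constant regions was 144, compared with 103 for the lost regions. Regions called in all 3 F/F and 1 FC/FC library (median score 120) were close to the lost regions, with H3K4me1 peaks at 90.1% to 94.4%. Those with 2 FC/FC libraries (median score 152) had them at 87.6% to 92.0%. At the 54 gained regions the share was 14.8% to 16.7% in F/F and 18.5% in each FC/FC library. All 6 libraries had an H3K4me1 peak at 1137 of the 1362 lost regions (83.5%), compared with 83.5% of the constant regions and 72.3% of all distal regions. No H3K4me1 peak in any library was seen at 21 lost regions (1.54%), compared with 9.02% of all distal regions. This share was 5.46% of the constant and 19.2% of the like-score constant regions.

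**Figure D3:**
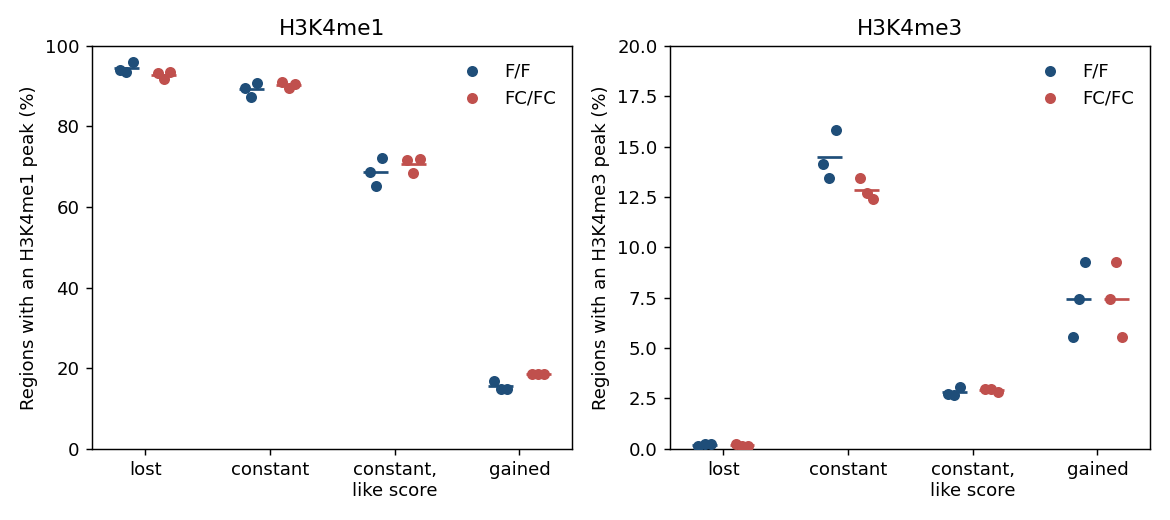
Share of regions with an H3K4me1 peak (left, %) and an H3K4me3 peak (right, %, axis to 20) for lost, constant, like-score constant and gained regions. Points are libraries (3 F/F, 3 FC/FC) and bars their means: lost regions sit at 91.8% to 96.0% for H3K4me1 and below 0.3% for H3K4me3.

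Only 4 lost regions were also lost for H3K4me1, meaning a peak in 3 F/F and no FC/FC library. That is 0.294% of the lost regions, beside 0.189% of all distal regions (102 of 54058), and is too few for a statement about the lost regions. The 4 lay in an intron of Adtrp (chr13:41803640-41804588), and nearest to the TSSs of Amigo2 (chr15:97407302-97408322), Cep135 (chr5:76681904-76682778) and Pde7b (chr10:20818336-20819305). These 3 TSSs were 160015, 90190 and 93268 bp away, in this order. Their H3K4me1 peaks were weak: the scores in NGS-6277, NGS-6285 and NGS-6293 were 68.4, 167 and 119 near Adtrp, 67.7, 62.5 and 121 near Amigo2, 54.8, 116 and 78.2 near Cep135, and 58.2, 114 and 51.45 near Pde7b. None of the 4 was still lost for H3K4me2 with equal peak numbers.

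H3K4me1 peak scores at the lost regions were lower in FC/FC libraries. Each region took the highest score of any peak that overlapped it, so a broad H3K4me1 peak gave its score to more than 1 region. For example, the lost region chr2:35883582-35884891 had the same H3K4me1 score as the constant region chr2:35879038-35883075 in every library. How many lost regions shared a peak with a neighbour was not counted. Median scores over the lost regions with a peak were 280 (NGS-6277), 241 (NGS-6285) and 364 (NGS-6293) in F/F, and 233 (NGS-6281), 198 (NGS-6289) and 209 (NGS-6297) in FC/FC libraries. Because scores depend on depth, each region was also given its percentile among the H3K4me1 scores of all 54058 distal regions of the same library, a measure added with the data in view. The median percentile of the lost regions was 54.1, 51.9 and 50.4 (F/F) against 45.0, 43.3 and 43.1 (FC/FC). The genotypes did not overlap, and the means differed by -8.37 points (52.2 ± 1.87 and 43.8 ± 1.04, SD, n = 3).

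Constant regions did not share this difference. Their median percentile averaged 65.2 ± 0.207 (F/F) and 67.2 ± 0.211 (FC/FC; SD, n = 3), and that of constant regions of like score was 30.3 ± 0.798 and 33.3 ± 1.05. The difference between lost and like-score constant regions was 20.6 to 24.3 points in F/F and 8.64 to 12.5 points in FC/FC libraries. Since percentiles are relative, a lower rank of some regions raises that of others.

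The difference was graded by the number of FC/FC libraries that had an H3K4me2 peak. Among regions called for H3K4me2 in all 3 F/F libraries, FC/FC minus F/F was -8.37 percentile points with 0 FC/FC libraries called, -4.41 with 1, -0.257 with 2 and 2.01 with 3. The F/F means of the first 3 of these sets were close to each other, at 52.2, 51.4 and 48.8. Both marks were called against the same H3 libraries, whose part in the result was not tested.

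**Figure D4:**
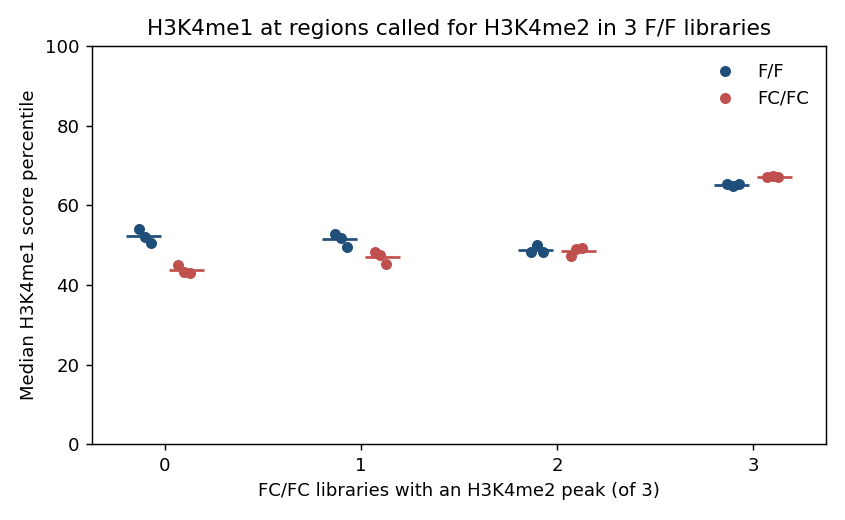
Median H3K4me1 score percentile (y axis, within library, over all distal regions) of regions called for H3K4me2 in 3 F/F libraries, by the number of FC/FC libraries with an H3K4me2 peak (x axis). Points are libraries and bars means: at 0 the FC/FC points (43.1 to 45.0) are below the F/F points (50.4 to 54.1), at 3 they are above.

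Region by region, all 3 FC/FC percentiles were below all 3 F/F percentiles at 291 lost regions (21.4%), and above them at 23 (1.69%). Over all distal regions these shares were 6.34% and 6.24%, and over the constant regions 4.30% and 8.29%. The remaining lost regions had overlapping genotypes. The lower H3K4me1 score percentile was thus seen for the group and could not be read from most single regions. The share of the lost regions' length covered by H3K4me1 peaks overlapped between genotypes (means of 91.5% in F/F and 90.1% in FC/FC libraries).

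H3K4me3 was nearly absent from the lost regions. Between 2 and 3 of the 1362 regions had an H3K4me3 peak in each library (0.147% to 0.220%), compared with 12.4% to 15.8% of the constant and 2.66% to 3.04% of the like-score constant regions. The F/F mean was 0.196% ± 0.0424 and the FC/FC mean 0.171% ± 0.0424 (SD, n = 3; exact permutation p = 1). No lost region had an H3K4me3 peak in 3 F/F and no FC/FC libraries, beside 0.129% of all distal regions (70 of 54058). In total 1359 lost regions (99.8%) had no H3K4me3 peak in any library, compared with 81.3% of the constant and 96.1% of the like-score constant regions.

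The 3 exceptions had no H3K4me1 peak in any library. The strongest, 488174 bp from the annotated start of Mir5125 (chr12:47812838-47813288), scored 1115, 634 and 1142 for H3K4me3 in F/F and 1258, 929 and 835 in FC/FC libraries. It overlaps Gm7392, annotated as a processed pseudogene, and one within Mgat5 (chr1:127282456-127283165) overlaps the processed pseudogene Gm8451. Reads of such copies can be shared with other genomic copies, so the values of both are uncertain. The third exception lay within Grk5 (chr19:60932501-60933181). A pseudogene of GENCODE M21 was overlapped by 7 lost regions (0.514%) and by 1.65% of constant regions. The Gm7392 sequence is shown with its 19 CpGs in capitals (central 300 bases, chr12:47812913-47813212, plus strand), in contrast to the median of 3 CpGs.
Gm7392: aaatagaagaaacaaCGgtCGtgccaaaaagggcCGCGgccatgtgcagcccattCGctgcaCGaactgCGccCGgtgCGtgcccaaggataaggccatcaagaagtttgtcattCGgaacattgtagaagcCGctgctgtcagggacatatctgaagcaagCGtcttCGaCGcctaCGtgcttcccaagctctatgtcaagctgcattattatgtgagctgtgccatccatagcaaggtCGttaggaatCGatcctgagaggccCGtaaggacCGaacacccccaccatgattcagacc

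Among the 10 lost regions with the highest mean F/F score, the leading one lay 11414 bp upstream of Cpz, which encodes carboxypeptidase Z (chr5:35537040-35538980, intergenic). Its H3K4me2 scores were 409, 194 and 904 in NGS-6278, NGS-6286 and NGS-6294. Its H3K4me1 scores were 2631, 1159 and 2388 in F/F and 2648, 1489 and 993 in FC/FC libraries, so that the genotypes overlapped.

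The next was upstream of Krt19, a keratin of simple epithelia (chr11:100155048-100156638, intergenic). H3K4me2 scored 190.3, 81.6 and 677, and H3K4me1 749, 398 and 946 in F/F and 571, 429 and 331 in FC/FC libraries. NGS-6294 dominated the mean at this and the preceding region.

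Others lay at genes of the actin cytoskeleton. An intronic region of Baiap2, whose product links membranes to actin (chr11:119954196-119956244), scored 338, 194 and 382 for H3K4me2. H3K4me1 there was 1496, 1134 and 2201 (F/F) against 1211, 984 and 733 (FC/FC). A region upstream of Wasf2, a subunit of the actin-nucleating WAVE complex (chr4:133107174-133109367, intergenic), scored 216, 118 and 579 for H3K4me2, and its H3K4me1 was 629, 404 and 776 against 497, 318 and 340. At both regions 1 FC/FC library lay within the F/F range.

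Ripk4, a kinase needed for keratinocyte differentiation, had a lost region 75032 bp downstream of its TSS (chr16:97687231-97688723, intergenic). H3K4me2 scored 249, 155 and 482, and H3K4me1 2364, 1652 and 3100 in F/F and 1645, 1520 and 1215 in FC/FC libraries, without overlap. Tbc1d1, a Rab GTPase-activating protein, had a region (chr5:64195935-64197685) with 158, 258 and 424 for H3K4me2 and 883, 698 and 1099 against 653, 375 and 447 for H3K4me1, also without overlap. The region near Prss23, a serine protease gene (chr7:89540302-89541918), had 233, 415 and 190.3 for H3K4me2, and here 1 FC/FC library (627) exceeded the lowest F/F library (621) for H3K4me1.

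The remaining members of the 10 lay at Fam120a (chr13:48921036-48923245, overlapping a coding exon), at Plekhg4 (chr8:105386919-105388692, overlapping an exon of Kctd19) and at Ly6f. All 10 had H3K4me1 peaks in every library but the Ly6f region, which had none in NGS-6297. H3K4me1 scores were below all F/F values in all 3 FC/FC libraries at 3 of the 10. Here and at the other single regions raw scores were compared, which depend on depth. The share of all distal regions with this pattern in raw scores was not counted. In percentiles it was met at 6.34% of all distal and 21.4% of the lost regions. With equal peak numbers 9 of the 10 were still lost, the exception being that at Ly6f. That setting drops the peaks with the lowest scores, so the count follows from the F/F scores by which the 10 were chosen.

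Of 1201 genes nearest to a lost region 1067 were nearest to 1, 111 to 2, 19 to 3 and 4 to 4. The genes with 4 were Ly6f, 9030204H09Rik, Rfx3 and Iqgap1, followed by Elovl6 with 3 of 5 distal regions called in all 3 F/F libraries. At Ly6f, a member of the Ly6 family of GPI-anchored surface proteins, 4 of 4 such regions were lost and none was constant. At 9030204H09Rik the 4 lost regions stood among 10, at Rfx3 among 11 and at Iqgap1 among 13, with 3, 6 and 8 constant neighbours. With equal peak numbers 3 of these 19 regions were still lost, 1 of 4 at each of Ly6f, 9030204H09Rik and Rfx3, and none at Iqgap1 or Elovl6.

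The 4 regions at Ly6f lay on both sides of the gene, 3 upstream and 1 downstream. They were assigned to Ly6f by the nearest TSS of the deposited tables, also where they overlap another gene. The 1 with the highest mean score (chr15:75215471-75217178, overlapping a coding exon of Ly6g2) scored 503, 67.1 and 282 for H3K4me2. Its H3K4me1 was 479, 200.4 and 426 in F/F and 63.9, 97.1 and no peak in FC/FC libraries. At chr15:75192514-75193693 H3K4me2 was 202, 121 and 119.8 (NGS-6278, NGS-6286 and NGS-6294) and H3K4me1 732, 521 and 466 against 373, 170.2 and 197.

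At chr15:75221432-75222537, which also overlaps a coding exon of Ly6g2, H3K4me1 was 407, 368 and 606 (F/F) against 238, 128 and 110.2 (FC/FC). In raw scores 3 of the 4 regions thus had no overlap between genotypes. At the fourth (chr15:75291531-75293019) H3K4me1 was 149, 306 and 322 against 146, 254 and 143, where the genotypes overlapped. Among the other 4 distal regions nearest to Ly6f, that at chr15:75203790-75205621, with an H3K4me2 peak in 2 F/F and 1 FC/FC libraries, had H3K4me1 scores of 121, 111 and 242 in F/F and 206, 183 and 314 in FC/FC libraries, so that its FC/FC values were not lower. The 4 lost regions shared at most 3.13% of their 20-base words with each other, on either strand.

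**Figure D5:**
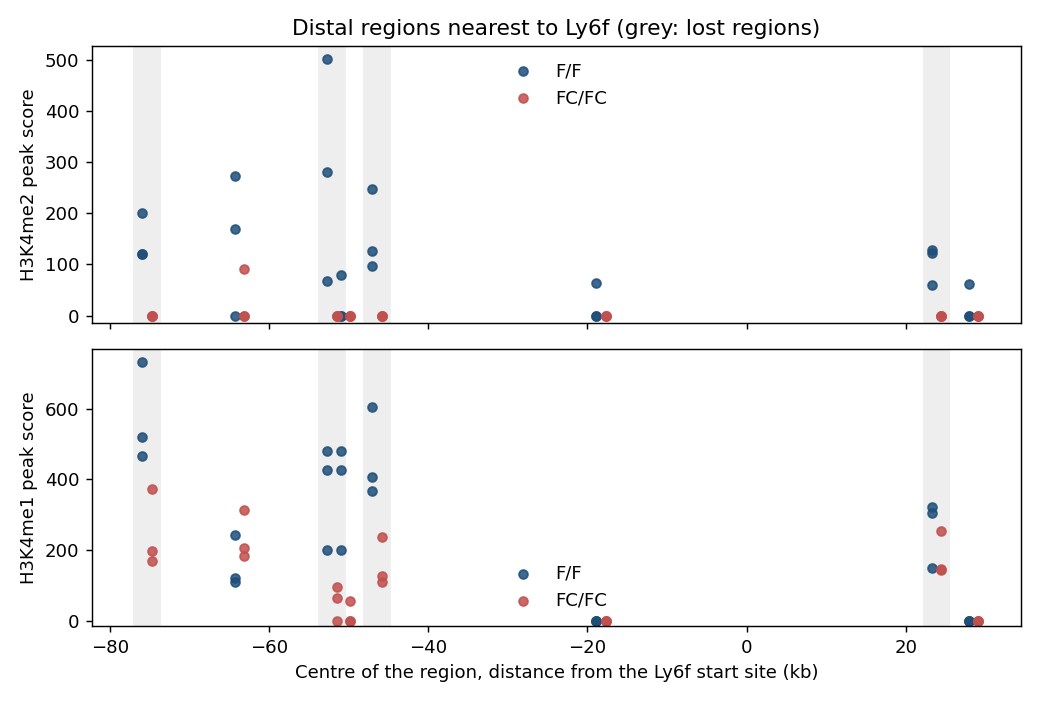
H3K4me2 (top) and H3K4me1 (bottom) peak scores in each library at the 8 distal regions nearest to Ly6f, by distance of the region's centre from the Ly6f start site (kb). Points at 0 had no peak, grey bands mark the 4 lost regions, and at 3 of these bands all FC/FC points for H3K4me1 lie below all F/F points.

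Iqgap1 encodes a scaffold of actin and cadherin junctions. Its lost regions lay in introns (chr7:80753239-80754644 and chr7:80779015-80780227), over a coding exon (chr7:80765437-80767105) and upstream (chr7:80821477-80822534), with mean F/F H3K4me2 scores of 168, 91.3, 102 and 84.6 in this order. H3K4me1 scores overlapped between genotypes at each of these regions. At chr7:80753239-80754644 they were 439, 471 and 615 (F/F) against 519, 331 and 440 (FC/FC). Rfx3, a transcription factor of ciliogenesis, had 3 in introns and 1 upstream (chr19:28255602-28257201), the last with H3K4me2 scores of 112, 140.05 and 359. H3K4me1 at that region was 606, 555 and 831 (F/F) against 831, 525 and 466 (FC/FC), so no lower value common to the FC/FC libraries was seen. All 4 regions assigned to 9030204H09Rik lay in Ttll11, 1 of them over an exon of Gm35396.

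Gene lists were used to describe which pathways lay near lost regions. For all genes in the tables, 9.51% of those with any distal region nearest to them had a lost one, and 3.75% of the distal regions called in 3 F/F libraries were lost. The keratin and epithelial list had 6 lost of 23 regions (26.1%), next to 5 of 7 genes with a distal region. The actin and contractile list had 4 of 26 (15.4%), p53 targets 5 of 43 (11.6%), YAP targets 5 of 72 (6.94%) and myogenic genes 1 of 15 (6.67%). The lists were chosen with earlier results in view and the counts are small, so they are descriptions.

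Further lists lay nearer to the share of all genes. Collagen genes had 5 of 114 (4.39%), Wnt pathway genes 7 of 167 (4.19%), fibroblast matrix genes 4 of 101 (3.96%) and adipogenic genes 1 of 28 (3.57%). Mesenchymal transcription factors had 3 of 100 (3.00%), TGF-beta and BMP genes 4 of 139 (2.88%), integrins and cadherins 2 of 96 (2.08%) and AP-1 and immediate early genes 1 of 64 (1.56%). No lost region was nearest to a gene of the H3K4 methyltransferase complexes (0 of 14), an H3K4 demethylase (0 of 5) or a linker histone (0 of 2). Among genes that the study listed as higher or lower in FC/FC cells on arrays of the same cells, 2 of 79 (2.53%) and 7 of 111 (6.31%) regions were lost.

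The epithelial genes were Krt19, Krt8, Krt7, Cldn4 and Cdh1. The keratins form filaments of simple epithelia, claudin 4 seals tight junctions and E-cadherin (Cdh1) joins epithelial cells. Near Krt8 (chr15:102013226-102014337, 8884 bp upstream) H3K4me2 scored 286, 111 and 339, and H3K4me1 1130.45, 821 and 2080.4 in F/F and 543, 346 and 199 in FC/FC libraries, without overlap.

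In the Cdh1 intron (chr8:106611740-106612810) H3K4me2 was 91.0, 51.8 and 107, and H3K4me1 433, 368 and 569 against 186, 87.6 and 168, again without overlap. At Cldn4 (chr5:134954994-134956201) H3K4me1 was 409, 839 and 462 (F/F) against 244, 374 and 233 (FC/FC), and the genotypes did not overlap. At Krt7 and at the second Krt19 region (chr11:100158790-100160160) they did. Of the 6 regions 3 were still lost with equal peak numbers. At the TSS, Cdh1 had peaks of all 3 marks in every library. Krt8 and Krt19 had H3K4me1 there in all 6 libraries and H3K4me3 in none, with H3K4me2 in 2 (Krt8) and 3 (Krt19) F/F libraries and in 0 FC/FC libraries. Cldn4 had H3K4me1 there in 3 F/F and 2 FC/FC libraries, with no peak of the other marks. Of the other epithelial markers, Krt18 had H3K4me2 at the TSS in 1 F/F and 2 FC/FC libraries, and Epcam in 3 F/F and 3 FC/FC libraries. The H3K4me2 calls at these TSSs come from the peak lists that chose the lost regions. How many of all TSSs had H3K4me2 peaks in F/F libraries only was not counted.

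The p53 list held Mdm2, Bbc3, Ccng1, Plk2 and Phlda3, all of which respond to p53. The region with the highest score lay 10267 bp upstream of Mdm2, the ubiquitin ligase of p53 (chr10:117721025-117722317). H3K4me2 was 72.5, 229 and 78.0, and H3K4me1 192, 1195 and 341 in F/F and 361, 389 and 267 in FC/FC libraries, NGS-6286 being high for H3K4me2 and NGS-6285 for H3K4me1, whose peaks were called against the same H3 library. Near Bbc3, within Sae1 (chr7:16321031-16322071), H3K4me1 was 268, 219 and 251 against 159, 114 and 155, and near Phlda3 it was 1282, 1009 and 1485 against 1048, 758 and 869. The genotypes overlapped near Phlda3 but not near Bbc3, and none of the 5 regions was still lost with equal peak numbers.

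Of the actin list, Tpm1 (tropomyosin) had 2 lost regions upstream, and Myh9 and Actn1 had 1 each. The Actn1 region had an H3K4me1 peak in NGS-6277 (1168) but in no other library. The stronger Tpm1 region (chr9:67081244-67082546) scored 217, 129 and 275 for H3K4me2, and 535, 182 and 459 against 349, 186 and 190.2 for H3K4me1. Near Myh9, which encodes non-muscle myosin heavy chain (chr15:77875612-77877507), H3K4me1 was 740.0, 1316 and 772 (F/F) against 351, 228 and 355 (FC/FC). At Myh9 the genotypes were apart, and at the stronger Tpm1 region they overlapped. The top regions of the other lists were near Cyr61, a YAP target (chr3:145617897-145619329), Tcf7l1 of the Wnt pathway (chr6:72748251-72749701), Tgfb3 (chr12:86026992-86028443), Loxl2 (chr14:69648296-69649384), Col3a1 (chr1:45135235-45136005), Klf15 (chr6:90495206-90496227), Des (chr1:75349052-75350009), Twist2 (chr1:91860009-91861970) and Ier2 (chr8:84577256-84578373), with mean F/F H3K4me2 scores of 160.4, 169, 174, 158, 121, 125, 93.2, 158 and 119. These regions were assigned by the nearest TSS only, which for Col3a1 was 175533 bp away. Near Twist2, H3K4me1 was close to the highest scores in both genotypes (2633, 2147 and 3100 in F/F, 3100, 2449 and 3081 in FC/FC libraries), although no H3K4me2 peak was called in FC/FC cells.

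The marks over whole genes were compared to see whether the nearest genes differed beyond the region itself. H3K4me1 over genes (RPKM, transcript with 500 bp on either side) was tested by limma on log2(RPKM + 0.1) over 8566 genes, 673 of them nearest to a lost region. No gene passed an adjusted p of 0.05, neither among the 673 nor among all genes (0% called). At an unadjusted p under 0.05 there were 227 of the 673 (33.7%), 197 of them lower in FC/FC cells, beside 2141 of all genes (24.99%). The median log2 difference of the nearest genes was -0.06, and that of all genes -0.0028. On reads recovered from the RPKM values limma-voom called 47 nearest genes lower and 11 higher in FC/FC cells (8.62%). Over all genes it made 485 calls (5.66%), 245 lower and 240 higher, so that the absence of calls depended on the method.

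The nearest genes with the smallest limma p for H3K4me1 were Golga7b, Faim2, Ly6f, Ripk4 and Crispld2, and all were lower in FC/FC cells without overlap. H3K4me1 over Ly6f averaged 5.65 ± 0.249 RPKM (F/F) and 4.53 ± 0.0600 RPKM (FC/FC; SD, n = 3), a log2 difference of -0.31 ± 0.05 (SE; limma, adjusted p = 0.0654). Over Ripk4 it was 1.43 ± 0.0597 and 1.11 ± 0.0447 RPKM, a log2 difference of -0.33 ± 0.06 (SE; limma, adjusted p = 0.0654), and over Golga7b 1.498 and 1.09 RPKM (limma, adjusted p = 0.0648). A lost region within the transcript or 500 bp of it adds to the gene's own value.

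For H3K4me3, 9072 genes were tested, 400 of them nearest to a lost region, and limma again called none (0% of all genes). At an unadjusted p under 0.05 there were 22 of the 400 (5.50%) beside 338 of all genes (3.73%), and limma-voom called none either. The smallest p belonged to Crabp2, a retinoic acid binding protein, with 1.82, 2.34 and 2.17 RPKM in F/F and 0.960, 1.15 and 0.866 RPKM in FC/FC libraries (log2 difference -1.02 ± 0.12, SE; limma, adjusted p = 0.0932). It was followed by 4930449E18Rik, Slc7a5, Fads2 and Jup, all with lower values in FC/FC cells and limma adjusted p of 0.368 to 0.709. The lost region of Crabp2 (chr3:87954791-87955814) lay 6098 bp downstream of its TSS and had H3K4me1 peaks in all 6 libraries, with scores of 453, 2322 and 1259 in F/F and 1010.45, 664 and 706 in FC/FC libraries.

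H3K4me2 over genes is the mark that chose the regions, and its values are given as a description. Of the 542 nearest genes measured, 33 were called lower and 1 higher in FC/FC cells by limma (6.27%). Of all 9986 genes 154 were called lower and 58 higher (2.12%). Crabp2 had 5.97, 6.06 and 6.37 RPKM in F/F and 3.90, 3.84 and 3.72 RPKM in FC/FC libraries, and Ly6f 5.07, 4.25 and 4.36 RPKM against 2.36, 2.65 and 2.56 RPKM. Without NGS-6282 limma called 2115 of all genes higher and 846 lower (29.95%). The count of nearest genes called was then 190 (35.4%), 76 of them higher and 114 lower. Without any other library it was 0 to 4, beside 0% to 0.182% of all genes.

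Gained regions seldom carried H3K4me1. The 3 with the highest mean FC/FC score lay 523601 bp from Mir6238 (chr7:53367193-53368288) and in introns of Tsc22d2 (chr3:58449339-58451342) and Sox5 (chr6:144180613-144181762). Their H3K4me2 scores were 151, 157 and 99.8 near Mir6238, 69.2, 64.7 and 222 in Tsc22d2, and 107, 101 and 119 in Sox5, in NGS-6282, NGS-6290 and NGS-6298. No H3K4me1 peak was called in any library near Mir6238 or in Sox5. Gained regions lay a median of 72744 bp from the nearest TSS. No H3K4me1 peak in any library was called at 41 of the 54 (75.9%), compared with 1.54% of the lost and 9.02% of all distal regions.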

How the data were processed

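H3K4me1, H3K4me2 and H3K4me3 ChIP-seq libraries (3 F/F and 3 FC/FC per mark) were analysed from the 18 deposited peak lists and RPKM tables. The members and lists were chosen with earlier results of these data known. Per the labels and the study's methods, the authors processed reads with CASAVA 1.4, aligned them to mm10 with BWA 0.7.10 and called peaks per library against H3 with MACS 1.4.2. The deposited score is -10 log10 of the MACS P-value, with a lowest value of 50. The study's methods drop peaks in blacklisted regions, and whether the deposited lists had been filtered in this way was not tested. The deposited RPKM values were computed by the authors over 28748 RefSeq transcripts extended by 500 bp, relative to reads in transcripts. They were whole multiples of 1 read in all libraries (tolerance 0.01), which gave 26714377 to 49990775 reads per library. The tables' true/false columns were not used.

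Peaks were merged and overlapped (1 bp or more) in Python 3.11.15 with pandas 2.3.3. Merging (against bedtools 2.31.1) and the limma step were tested on simulated data. Constant regions were called in all 6 H3K4me2 libraries. An exact permutation test, two-sided, over libraries (scipy 1.17.1) compared the shares, and its smallest p for 3 against 3 is 0.1. Genes (1 transcript each, that of a table of the study for 414 of 23043 genes, else the longest, at least 250 bp, RPKM above 1 in at least 3 libraries) were tested by limma 3.58.1 in R 4.3.3 on log2(RPKM + 0.1) with Benjamini-Hochberg adjustment over all genes tested; fold changes are on this scale. Sequences were read from GRCm38 with pysam 0.24.0. Named regions were the 10 with the highest mean F/F score, those also lost for H3K4me1 or H3K4me3 (at most 5 and 3), those of the 5 genes nearest to most lost regions, the highest of each list, 3 gained ones and those beside each limit. Also named were the nearest genes of these and the 5 with the smallest p for H3K4me1 and H3K4me3. The 3 regions with H3K4me3 peaks, the other regions of the keratin, p53 and actin lists, and Crabp2's H3K4me2 were named after their values had been seen. Alternatives were a score of at least 100, equal peak numbers, 2 and 10 kb, 50% overlap, merging over 500 bp, other pseudocounts and filters, median centring and leaving out each library.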

Additional observations from a re-analysis of the deposited data

How the results depend on the processing

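The 1362 lost regions became 382 with equal peak numbers, and 1694 to 3169 when 1 H3K4me2 library was left out (2328 without NGS-6278, 3169 without NGS-6286, 2160 without NGS-6290). Other settings gave 1174 to 1476. The lower H3K4me1 share at lost regions in FC/FC libraries kept its direction in 18 of 18 alternatives (differences of -2.96 to -0.918 points), as did the share at lost minus constant regions in 19 of 19 (-4.54 to -2.14) and the added score percentile in 18 of 18 (-12.5 to -6.55). Leaving out 1 library gave -2.60 to -0.918, -3.82 to -2.14 and -9.23 to -6.55. No exact test could pass 0.05 in this design. The share at lost regions no longer separated the genotypes with a minimum score of 100 (p = 0.2), equal peak numbers (0.4), 10 kb (0.3), 50% cover (0.7) or any H3K4me2 library left out (0.2 to 0.5; exact permutation tests). The difference from constant regions and the percentile kept an exact permutation p = 0.1 in these, and 0.2, the smallest possible, without an H3K4me1 library. All of these settings kept the H3 libraries that the marks share. The H3K4me3 share at lost regions differed by 0 with a minimum score of 100, with equal peak numbers, without NGS-6278 and without NGS-6290, and by -0.0674 to 0 when 1 library was left out. The H3K4me3 share at lost minus constant regions was 1.58 points higher in FC/FC cells, but -0.135 points against constant regions of like score. The median difference in held-out libraries was 36.7 points, and 25.2 with equal peak numbers.

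Nearest genes called for H3K4me1 numbered 0, but 12 with median-centred libraries (1.78%, beside 1.02% of all genes). They numbered 58 by limma-voom (8.62%, beside 5.66% of all genes), which was chosen after seeing the data. For H3K4me3 leaving out NGS-6279 or NGS-6291 gave 1, out of 2 and 1 calls over all genes. For H3K4me2 the 34 calls became 76 without the filter (6.56%, beside 1.96% of all genes) and 71 with centring (13.1%, beside 4.34%). By limma-voom they became 75 (13.8%, beside 4.44%). When 1 library was left out they became 0 to 190, beside 0% to 29.95% of all genes. The causes were not tested. No paired analysis was possible because the labels give the libraries no shared replicate numbers, and the order of the library numbers was not used to pair genotypes. Peak scores hold no depth of their own, and a region without a call is only below the caller's threshold.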
